A study of Mus musculus with 9 samples.

Results

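The expressed genes of mouse chromosome 7 were followed in order of position, library by library, in 9 bulk RNA-seq libraries of Panc02 cells, a line of pancreatic ductal adenocarcinoma from the mouse. Members were the genes whose first chromosome entry in the count tables was 7 and that had 10 or more counts in at least 3 libraries. Gene symbols beginning with Zfp, Rpl or Rps were left out, and so were a set of known imprinted genes. These rules gave 1171 members among the 16049 genes that met the count rule, in tables of 49671 genes. Of the 4717 chromosome 7 genes in the tables, 3445 missed the count rule, 2200 of them with 0 counts in all libraries. A further 97 genes were left out by symbol and 4 as listed imprinted genes. The third-highest count, on which the rule turned, was 10 to 30 (median 10.5) in the 70 members with exactly 3 libraries at 10 counts, and 3 to 9 (median 8) in the 71 genes with exactly 2. The members included 876 protein-coding genes, and their starts ran from position 3109020 to 145186524 of the GRCm38 build. Of the members, 1133 passed the expression filter of the gene-wise test and 38 did not.

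There were 3 groups of 3 libraries. KO_1E7 is a single clone with the genotype label of a VPAC2 knockout. CRISPR_1G2 is a single clone with the genotype label CRISPR-wild type, although the design text counts both single clones as knockout cells. The parental group is the unedited wild-type line. VPAC2 is a receptor for vasoactive intestinal peptide and is encoded by Vipr2, on chromosome 12. All cells were grown in DMEM with HEPES and 10% fetal bovine serum, with no treatment given in the labels. The libraries of a clone repeat that clone, so loss of VPAC2 and other differences of the clone cannot be told apart.

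Mouse chromosome 7 has its centromere at the start of its numbering and carries dense blocks of housekeeping genes, the glycolytic genes Aldoa, Gpi1 and Ldha, the cyclin D1 gene, large arrays of olfactory receptor genes and several imprinted clusters. Genes that share a chromosome are usually transcribed under separate local control. What they share is the number of copies of the DNA they lie on, and tumour cell lines and clones drawn from them often differ in chromosome number. DNA was not measured in these libraries, and poly(A) RNA counts do not give copy number. Of 292 olfactory receptor genes of the chromosome in the tables, 2 were members.

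Upstream sequence is shown for 4 members on which the single-gene results turn. Axl and Lgals7 were the members that passed the test between CRISPR_1G2 and parental. Serpinh1 had the widest spread among KO_1E7 libraries of the genes with the most reads, and Ucp2 was among the few members higher in KO_1E7. Each line gives the 250 bases before the RefSeq transcription start on GRCm38.p6, 5′ to 3′ on the strand of the gene. They lie at chr7:25788734-25788983 (minus strand) for Axl, chr7:28864136-28864385 (plus) for Lgals7, chr7:99353240-99353489 (minus) for Serpinh1 and chr7:100493108-100493357 (plus) for Ucp2. The Lgals7 stretch lies inside the gene as counted, which starts at 28863853. That of Ucp2 runs past the start of the gene as counted, at 100493337. Capitals mark a match to GGGCGG, the core of the GC box, on either strand.
Axl: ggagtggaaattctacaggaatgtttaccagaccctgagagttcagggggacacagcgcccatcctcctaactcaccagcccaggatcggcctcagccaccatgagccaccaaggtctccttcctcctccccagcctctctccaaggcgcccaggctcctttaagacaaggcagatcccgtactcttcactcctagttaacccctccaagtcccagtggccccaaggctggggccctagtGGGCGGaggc
Lgals7: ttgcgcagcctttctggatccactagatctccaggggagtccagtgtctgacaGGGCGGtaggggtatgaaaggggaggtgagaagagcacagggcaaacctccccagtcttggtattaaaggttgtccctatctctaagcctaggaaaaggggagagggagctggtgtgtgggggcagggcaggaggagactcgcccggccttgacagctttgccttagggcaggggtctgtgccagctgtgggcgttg
Serpinh1: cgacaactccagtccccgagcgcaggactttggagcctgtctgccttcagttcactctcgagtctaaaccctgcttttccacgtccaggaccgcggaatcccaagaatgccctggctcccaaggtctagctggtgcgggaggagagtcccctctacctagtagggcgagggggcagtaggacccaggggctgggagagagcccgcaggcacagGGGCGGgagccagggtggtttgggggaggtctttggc
Ucp2: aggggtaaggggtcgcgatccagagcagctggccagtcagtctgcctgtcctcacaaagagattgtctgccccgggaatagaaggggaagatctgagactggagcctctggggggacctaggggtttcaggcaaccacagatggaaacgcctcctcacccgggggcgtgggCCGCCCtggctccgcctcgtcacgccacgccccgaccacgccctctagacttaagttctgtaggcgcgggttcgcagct
Each of the 4 held 1 GC box core, which in Ucp2 lay on the opposite strand, and 0 matches to TATAAA or CCAAT on either strand. The motifs do not overlap each other. Among promoters of the same length, GGGCGG occurred in 58.55% of 784 promoters of tested members, 57.28% of 9710 promoters of other tested genes and 32.74% of all 32851 promoters in the RefSeq table. TATAAA occurred in 5.995%, 6.777% and 12.37% of these sets and CCAAT in 39.29%, 36.36% and 33.85%. The median number of CpG pairs was 14 in promoters of tested members, 16 in those of other tested genes and 6 in all. By these letters the member promoters lay close to those of other expressed genes, and a match describes the sequence only.

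Gene counts per library ranged from 27898705 to 51878289. Vipr2 had 1, 2 and 1 counts in KO_1E7 1, 2 and 3, 1, 13 and 12 in CRISPR_1G2 1, 2 and 3, and 6, 3 and 12 in parental 1, 2 and 3, too few to check any label firmly. Of 10 pancreatic duct markers, 7 were above 1 CPM (counts scaled to library size) in every library, and 4 of 5 islet markers were at 0 in all of them. Of 4 mesenchymal markers, 3 were above 1 CPM in every library. Their list summed to 2592 to 3741 CPM in KO_1E7, 2028 to 3799 CPM in CRISPR_1G2 and 3413 to 3935 CPM in parental. The 5 acinar markers summed to 7.39 to 13.2 CPM in KO_1E7, 1.16 to 2.14 CPM in CRISPR_1G2 and 2.24 to 2.87 CPM in parental, with Prss1 at 0 in every library. Nearly all of that sum was Cela1, at 13.1, 7.37 and 12.0 CPM in KO_1E7 1, 2 and 3, while Prss2 had 0, 1 and 0 counts in KO_1E7, 2, 1 and 5 in CRISPR_1G2 and 3, 7 and 5 in parental, and Cpa1 and Pnlip had 0 to 2 counts in every library. Parental 3 and CRISPR_1G2 3 lay far from the other libraries of their groups, at -58.2 and -86.3 on the first principal component (42.7% of the variance), and KO_1E7 2 lay nearest of its group to the others, at 47.1. Results are therefore also given without those 3 libraries. The third library of each group has the word NSG in its column name, where the others have a date, and the sources used here do not say what NSG means. In bulk libraries, fewer cells expressing a gene and less RNA per cell cannot be told apart.

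The chromosome was chosen by the low values of its genes in KO_1E7 against parental, so every comparison with KO_1E7 is a description. Members called by adjusted p in those comparisons are counted beside the calls over all tested genes, and no p-value is read for them. The level of each library was measured as the median, over the 1133 tested members, of the log2 CPM minus the mean of that gene over 9 libraries. The median of all tested genes was then subtracted, so that 0 means no shift relative to the rest of the genome. The member median was -0.34, -0.16 and -0.38 in KO_1E7 1, 2 and 3, 0.19, 0.21 and 0.10 in CRISPR_1G2 1, 2 and 3, and 0.13, 0.14 and 0.09 in parental 1, 2 and 3. All KO_1E7 libraries lay below all others, and KO_1E7 2 was the least low of them. CRISPR_1G2 3 lay within the range of the parental libraries, and CRISPR_1G2 1 and 2 lay above it. The group means were -0.30 ± 0.12 in KO_1E7, 0.17 ± 0.06 in CRISPR_1G2 and 0.12 ± 0.02 in parental (SD, n = 3 each). KO_1E7 differed by -0.42 from parental and by -0.46 from CRISPR_1G2, both larger than the spread between replicates, whereas CRISPR_1G2 differed from parental by 0.05, less than the SD of its own libraries. Among the NSG-named libraries alone KO_1E7 3 stood at -0.38, CRISPR_1G2 3 at 0.10 and parental 3 at 0.09, and without them the fitted member median in KO_1E7 against parental was -0.39 relative to all genes.

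**Figure D1:**
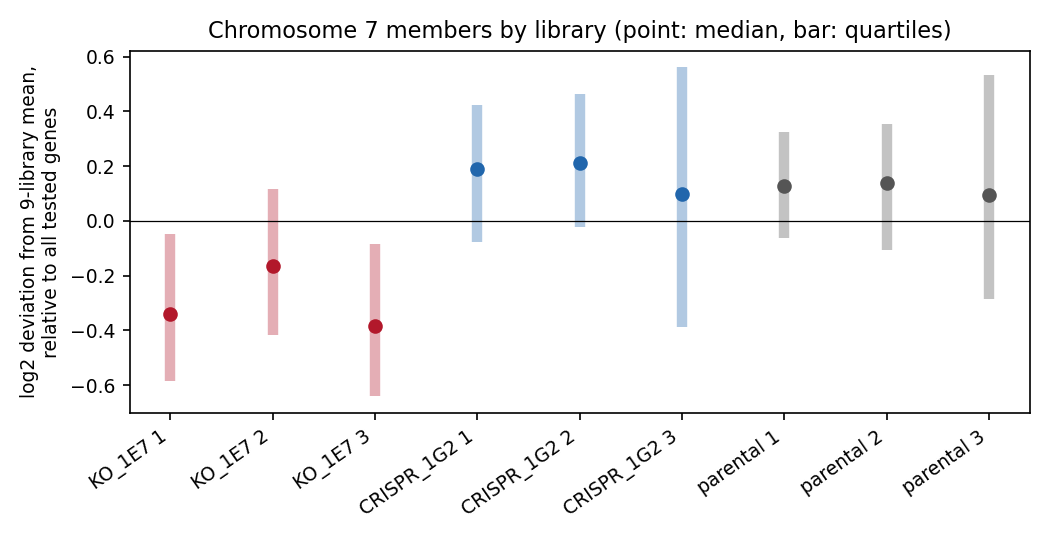
Points are the median over 1133 chromosome 7 members of the log2 deviation of each gene from its 9-library mean, relative to all tested genes, and bars run between the quartiles of the members. The KO_1E7 points lie at -0.34, -0.16 and -0.38 and those of the other 6 libraries between 0.09 and 0.21. The bar of KO_1E7 3 lies wholly below those of CRISPR_1G2 1 and 2 and parental 1, and that of KO_1E7 1 wholly below that of CRISPR_1G2 2.

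The shift was spread over many genes. Members below 0 on this scale made up 78.2%, 67.3% and 80.8% of the total in KO_1E7 1, 2 and 3, 29.6%, 27.2% and 44.7% in CRISPR_1G2 1, 2 and 3, and 32.9%, 34.7% and 43.1% in parental 1, 2 and 3. The share was nearer 50% in CRISPR_1G2 3 and parental 3 than in the other libraries of their groups, and their quartiles were wider. Reads of all members together, tested or not, came to 39186, 43481 and 37705 CPM in KO_1E7 1, 2 and 3, 58704, 58637 and 49785 CPM in CRISPR_1G2 1, 2 and 3, and 53514, 56151 and 46202 CPM in parental 1, 2 and 3. The summed level was thus lower in each KO_1E7 library than in any other library. Among the KO_1E7 libraries, replicate 2 was the highest for 628 members (55.4%), against 36.4% of the other tested genes.

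Gene by gene, the median log2 fold change of members in KO_1E7 against parental was -0.44, against -0.03 over all tested genes. In this contrast 902 of 1133 members (79.6%) lay below the median of all genes, against 47.7% of the other genes. The spread among members was like that of other genes, with an interquartile range of 0.65 for members and 0.67 for the rest. By edgeR at an adjusted p of 0.05, 106 members were called lower and 15 higher, where 2.87% and 2.54% of all tested genes were called in those directions. In 438 members every KO_1E7 library lay below every parental library (17.3% of all tested genes did) and in 43 every one lay above (17.2%). Against CRISPR_1G2 the member median was -0.52, against -0.03 over all genes, with 233 members called lower (7.03% of all tested genes) and 24 higher (5.71%). In 338 members the KO_1E7 libraries lay below all 6 others (12.3% of all tested genes) and in 34 above all 6 (12.4%).

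Counts of called members moved with the libraries in the fit, while the median moved little. The number of calls over all tested genes moved too, and the share of all genes called in the same direction is given beside each count. Without KO_1E7 1, 7 members were called lower against parental (0.116% of all tested genes), and without KO_1E7 3, 2 were (0.0483%). Without parental 1, 2 or 3 the count was 18, 40 or 51 (0.334%, 1.27% and 1.16% of all genes). Without CRISPR_1G2 1 or 2 it was 46 or 43 (1.16% and 1.09%), without CRISPR_1G2 3 it was 218 (6.38%) and without KO_1E7 2 it was 67 (2.16%). Members called higher were 1 without KO_1E7 1 or KO_1E7 3 (0.183% and 0.0966% of all genes), 25 without CRISPR_1G2 3 (5.82%) and 6 to 8 without any of the others (0.687% to 1.46%). Against CRISPR_1G2, 61 members were called lower without KO_1E7 1 (1.52% of all genes), 42 without KO_1E7 3 (1.09%), 120 or 123 without CRISPR_1G2 1 or 2 (3.31% and 3.21%), and 154 without parental 1 (4.02%). The 24 called higher were 12, 15, 16 and 16 without KO_1E7 1, KO_1E7 3, CRISPR_1G2 1 and CRISPR_1G2 2 (1.85%, 1.65%, 2.39% and 2.51% of all genes). With parental 3, CRISPR_1G2 3 and KO_1E7 2 all left out, a setting added after seeing the data, 481 were called lower and 34 higher, where 15.6% and 12.7% of all tested genes were called. The member median relative to all genes was -0.41 with all libraries, stayed between -0.48 and -0.37 when any 1 library was left out, and was -0.50 without the 3 libraries that stood apart. That last setting leaves out KO_1E7 2, the least low KO_1E7 library, which by itself lowers the median, to -0.48 when only KO_1E7 2 was left out.

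Members were then placed in 15 windows of 10 Mb by their start, holding 23 to 138 tested members each. The mean of the KO_1E7 libraries was below those of CRISPR_1G2 and parental in all 15 windows. Every KO_1E7 library lay below every CRISPR_1G2 library in 15 windows and below every parental library in 14. The exception was 140 to 150 Mb, where parental 3 stood at -0.20 and KO_1E7 2 at -0.12. KO_1E7 minus parental ranged from -0.63 at 10 to 20 Mb to -0.23 at 50 to 60 Mb, and KO_1E7 minus CRISPR_1G2 from -0.77 to -0.17 in the same windows. In 28 windows of 5 Mb, KO_1E7 was below parental by mean in 28, and in 23 no KO_1E7 library reached a parental one. Against CRISPR_1G2 it was below by mean in 27 of the 28 and without overlap in 24. The window at 70 to 75 Mb, with 12 members, separated KO_1E7 from neither group, at -0.33, 0.06 and 0.13 in KO_1E7 1, 2 and 3, -0.26, -0.31 and 0.41 in CRISPR_1G2 1, 2 and 3, and -0.13, -0.11 and 0.41 in parental 1, 2 and 3. The difference from parental was also small at 135 to 140 Mb, at -0.07 over 14 members. In most windows the KO_1E7 libraries were thus lower, and by mean the difference was widest at 10 to 15 Mb, at -0.68 from parental and -1.13 from CRISPR_1G2.

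**Figure D2:**
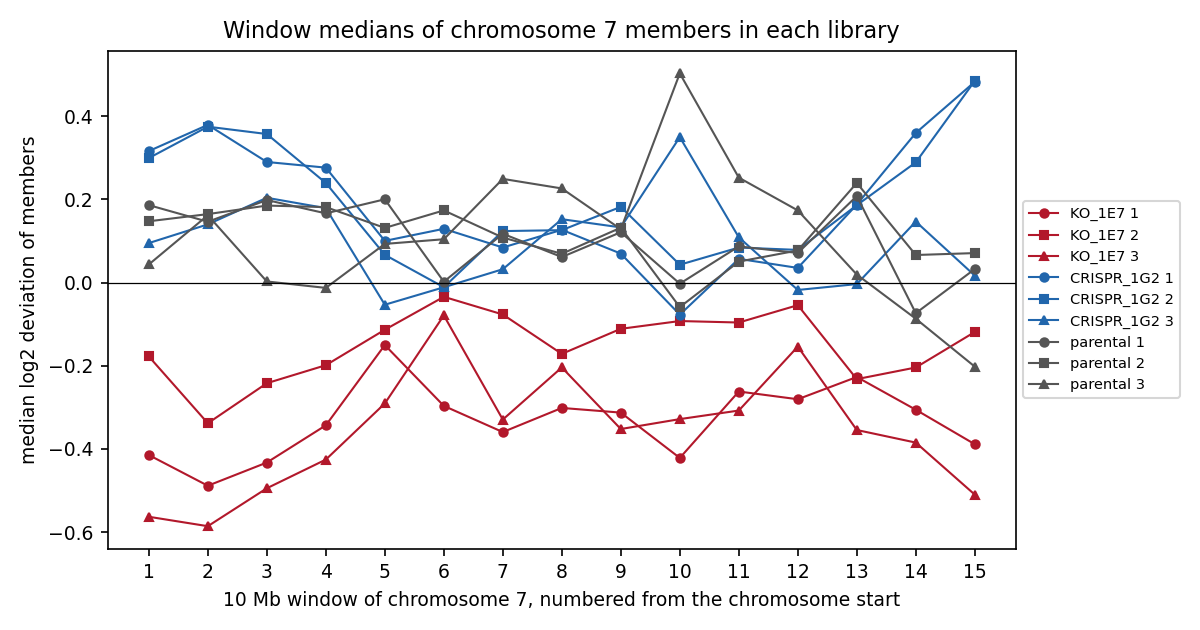
Lines give the median log2 deviation of members, relative to all tested genes, in each 10 Mb window numbered from the start of the chromosome, with 1 line per library. The KO_1E7 lines lie below 0 in every window, and CRISPR_1G2 1 and 2 lie highest in the last window, at 0.48 each.

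The deepest window, 10 to 20 Mb with 120 tested members, had medians of -0.49, -0.34 and -0.59 in KO_1E7 1, 2 and 3, 0.38, 0.37 and 0.14 in CRISPR_1G2 1, 2 and 3, and 0.15, 0.16 and 0.16 in parental 1, 2 and 3. There 87.5% of members lay below the all-gene median in KO_1E7 against parental, and the share was lowest at 110 to 120 Mb, with 69.7%. The shallowest window, 50 to 60 Mb with 23 members, had medians of -0.30, -0.03 and -0.08 in KO_1E7 1, 2 and 3, 0.13, -0.01 and -0.01 in CRISPR_1G2 1, 2 and 3, and 0.00, 0.17 and 0.10 in parental 1, 2 and 3. There KO_1E7 2 lay just below CRISPR_1G2 2 and 3, so the groups were separated by little. At 90 to 100 Mb, parental 3 and CRISPR_1G2 3 stood out at 0.50 and 0.35, where the other parental and CRISPR_1G2 libraries lay between -0.08 and 0.04.

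The difference between CRISPR_1G2 and parental, a contrast that did not choose the chromosome but shares its parental libraries, varied with position. CRISPR_1G2 minus parental was 0.11, 0.14, 0.15 and 0.12 in the 4 windows of 0 to 40 Mb, between -0.10 and 0.02 in the 9 windows of 40 to 130 Mb, and 0.30 and 0.36 in the last 2. At 130 to 140 Mb the libraries stood at 0.36, 0.29 and 0.15 in CRISPR_1G2 1, 2 and 3, against -0.07, 0.07 and -0.09 in parental 1, 2 and 3. At 140 to 150 Mb they stood at 0.48, 0.48 and 0.02 in CRISPR_1G2 1, 2 and 3, against 0.03, 0.07 and -0.20 in parental 1, 2 and 3. All CRISPR_1G2 libraries lay above all parental ones at 130 to 140 Mb and at 20 to 30 Mb, but at 140 to 150 Mb CRISPR_1G2 3 lay among the parental libraries. In these last 2 windows 18.8% and 19.5% of members lay below the all-gene median in CRISPR_1G2 against parental, 28.3% to 32.1% did in the 4 windows of 0 to 40 Mb, and 47.8% to 62.9% did in the 9 windows between. Taken between same-numbered libraries, CRISPR_1G2 minus parental was 0.43, 0.22 and 0.23 at 130 to 140 Mb and 0.45, 0.41 and 0.22 at 140 to 150 Mb for numbers 1, 2 and 3, positive for each number. In the 4 windows of 0 to 40 Mb it was positive for each number except number 3 at 10 to 20 Mb, at -0.02. The picture depended on window size. In 28 windows of 5 Mb, every CRISPR_1G2 library lay above every parental one in 6 and below in 3. At 90 to 95 Mb the difference was -0.37, with every CRISPR_1G2 library below every parental one and parental 3 high at 0.71. At 10 to 15 Mb it was 0.45. No p-value is given for a window, and the blocks were described after the windows were seen.

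Single members seldom passed in that contrast. By edgeR, 2 members were lower in CRISPR_1G2 than in parental (0.254% of all tested genes were called lower) and 0 were higher (0% of all tested genes), while 38 and 59 (3.35% and 5.21% of members) had an unadjusted p below 0.05, against 4.41% and 3.31% of all tested genes. With the replicate number as a block, 2 members were called lower and 1 higher, where 36 and 1 of all tested genes were. The 1 higher, B4galnt4, named after its values were seen, had 1309, 1419 and 930 counts in CRISPR_1G2 1, 2 and 3, against 709, 812 and 355 counts in parental 1, 2 and 3 (edgeR adjusted p = 0.0326 with the block). Without parental 1, 3 members were called higher, where 42 of all tested genes were. These 3, also named after their values were seen, were the leukocyte genes Tyrobp, Cd33 and Itgal. Tyrobp had 21, 16 and 25 counts in CRISPR_1G2 1, 2 and 3, against 27, 0 and 0 counts in parental 1, 2 and 3. The pan-leukocyte marker Ptprc, on chromosome 1, had 106, 69 and 83 counts in CRISPR_1G2 1, 2 and 3, against 72, 1 and 3 in parental 1, 2 and 3, and its part in the result was not tested. In KO_1E7 1, 2 and 3, Tyrobp had 25, 38 and 28 counts and Ptprc 65, 135 and 63. Parental 1 thus lay with the CRISPR_1G2 and KO_1E7 libraries for both genes, and only parental 2 and 3 stood apart. DESeq2 called 8 lower and 16 higher, or 0.706% and 1.41% of members, where it called 1.05% and 0.438% of all tested genes. Of those 16, 14 started within 0 to 40 or 130 to 150 Mb, where 495 tested members lie. Those blocks were taken from the window medians of this same contrast, so the 14 are not separate support for them. In 60 members every CRISPR_1G2 library lay below every parental one (6.45% of all tested genes) and in 91 above (6.64%), so the shares of members, 5.30% and 8.03%, lay near those of all genes.

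Lgals7, which encodes galectin-7, a beta-galactoside-binding protein of stratified epithelia, was the larger of the 2 changes. Lgals7 (ENSMUSG00000053522, plus strand, 28863853 to 28866284) had 15, 39 and 40 counts in CRISPR_1G2 1, 2 and 3, against 1412, 931 and 1523 counts in parental 1, 2 and 3. Its level was 0.998 ± 0.393 CPM in CRISPR_1G2 and 35.5 ± 8.72 CPM in parental (SD, n = 3 each). The groups were far apart, and Lgals7 fell by 5.14 on the log2 scale in CRISPR_1G2 (SE 0.33, n = 3 each, edgeR adjusted p = 0.00039). It stood at 78.3, 78.8 and 66.7 CPM in KO_1E7 1, 2 and 3, above every parental library. The call held in every setting run for it, with edgeR adjusted p-values between 0.00039 and 0.00738.

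Axl, the receptor tyrosine kinase for the ligand Gas6, was the other. Axl (ENSMUSG00000002602, minus strand, 25757273 to 25788705) had 239, 232 and 208 CPM in CRISPR_1G2 1, 2 and 3, against 458, 415 and 505 CPM in parental 1, 2 and 3. Every CRISPR_1G2 library lay well below every parental one, and Axl fell by 1.02 on the log2 scale (SE 0.12, n = 3 each, edgeR adjusted p = 0.0129). In KO_1E7 1, 2 and 3 it stood at 492, 493 and 487 CPM, within the parental range. It held with the replicate block (adjusted p = 0.0302). The call ended without CRISPR_1G2 1 (adjusted p = 0.067), CRISPR_1G2 2 (0.104), KO_1E7 1 (0.0504) or KO_1E7 3 (0.0559), with log2 fold changes between -1.08 and -0.89 over all settings. Axl and Lgals7 lie in the same window, 20 to 30 Mb, where the median of members was higher in CRISPR_1G2 than in parental.

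The member with the highest mean CPM in each window, taken by level and not by any contrast, showed how unevenly single genes followed the chromosome. U2af2, encoding a splicing factor subunit (window 0 to 10 Mb), had 347, 337 and 324 CPM in KO_1E7 1, 2 and 3, 488, 471 and 439 CPM in CRISPR_1G2 1, 2 and 3, and 474, 458 and 402 CPM in parental 1, 2 and 3. All its KO_1E7 libraries lay below the other 6, with a log2 fold change of -0.41 ± 0.12 (SE) against parental. Tjp1, encoding the tight junction protein ZO-1 (60 to 70 Mb), had 114, 182 and 128 CPM in KO_1E7 1, 2 and 3, 234, 238 and 278 CPM in CRISPR_1G2 1, 2 and 3, and 207, 214 and 235 CPM in parental 1, 2 and 3. It was likewise lower in every KO_1E7 library, by -0.63 ± 0.18 against parental. Actn4, encoding the actin crosslinker alpha-actinin-4 (20 to 30 Mb), had 376, 482 and 353 CPM in KO_1E7 1, 2 and 3, 771, 816 and 512 CPM in CRISPR_1G2 1, 2 and 3, and 651, 719 and 470.3 CPM in parental 1, 2 and 3. Its KO_1E7 2 library passed parental 3, so the groups overlapped.

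Serpinh1, encoding the collagen chaperone HSP47 (90 to 100 Mb), varied most of these genes among KO_1E7 libraries. Serpinh1 (ENSMUSG00000070436, minus strand, 99345376 to 99353239) had 8.34, 131 and 4.78 CPM in KO_1E7 1, 2 and 3, 472, 438 and 315 CPM in CRISPR_1G2 1, 2 and 3, and 333, 333 and 217 CPM in parental 1, 2 and 3. Every KO_1E7 library lay below the others, but KO_1E7 2 was many times above KO_1E7 1 and 3, and the log2 fold change against parental was -2.61 ± 1.06.

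In several other window genes the third libraries of CRISPR_1G2 and parental were the lowest of their groups. Trim28, encoding a corepressor that acts with zinc finger proteins (10 to 20 Mb), had 253, 250.2 and 237 CPM in KO_1E7 1, 2 and 3, 527, 481 and 246 CPM in CRISPR_1G2 1, 2 and 3, and 454, 515 and 184 CPM in parental 1, 2 and 3. Ldha, encoding the lactate dehydrogenase A subunit (40 to 50 Mb), had 1651, 1883 and 1583 CPM in KO_1E7 1, 2 and 3, 2690.5, 2623 and 1038 CPM in CRISPR_1G2 1, 2 and 3, and 1698, 2624 and 1013 CPM in parental 1, 2 and 3. Aldoa, encoding the glycolytic enzyme aldolase A (120 to 130 Mb), had 988, 1171 and 879.8 CPM in KO_1E7 1, 2 and 3, 1317, 1296 and 397 CPM in CRISPR_1G2 1, 2 and 3, and 1101, 1446 and 578 CPM in parental 1, 2 and 3. For each of these genes the KO_1E7 libraries lay inside the range of the other 6 or overlapped it, so no separation by group was seen. Gpi1, encoding the glycolytic enzyme glucose-6-phosphate isomerase (30 to 40 Mb), had the same form, with 400.4, 544 and 409 CPM in KO_1E7 1, 2 and 3, 755, 802 and 266 CPM in CRISPR_1G2 1, 2 and 3, and 552, 813 and 245 CPM in parental 1, 2 and 3.

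Near the end of the chromosome, Ccnd1, encoding cyclin D1, which drives entry into S phase (140 to 150 Mb), had 602, 948 and 524 CPM in KO_1E7 1, 2 and 3, 1393, 1395 and 725 CPM in CRISPR_1G2 1, 2 and 3, and 936, 948 and 648 CPM in parental 1, 2 and 3. The replicates varied within every group, and its log2 fold change in CRISPR_1G2 against parental was 0.47 ± 0.31 (edgeR adjusted p = 0.818). Mki67, encoding the proliferation antigen Ki-67 (130 to 140 Mb), had 439, 447 and 455 CPM in KO_1E7 1, 2 and 3, 605, 594 and 387 CPM in CRISPR_1G2 1, 2 and 3, and 416, 552 and 303 CPM in parental 1, 2 and 3. It did not separate the groups. Rrm1, encoding the large subunit of ribonucleotide reductase (100 to 110 Mb), had 284, 247 and 301 CPM in KO_1E7 1, 2 and 3, 298, 286 and 323 CPM in CRISPR_1G2 1, 2 and 3, and 260.0, 341 and 271 CPM in parental 1, 2 and 3, and the 3 groups overlapped. Of the remaining window genes, Cyfip1, Abhd2, Iqgap1 and Eif4g2 had log2 fold changes of -0.03 ± 0.32, -0.12 ± 0.35, -0.23 ± 0.21 and -0.24 ± 0.15 in KO_1E7 against parental.

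**Figure D3:**
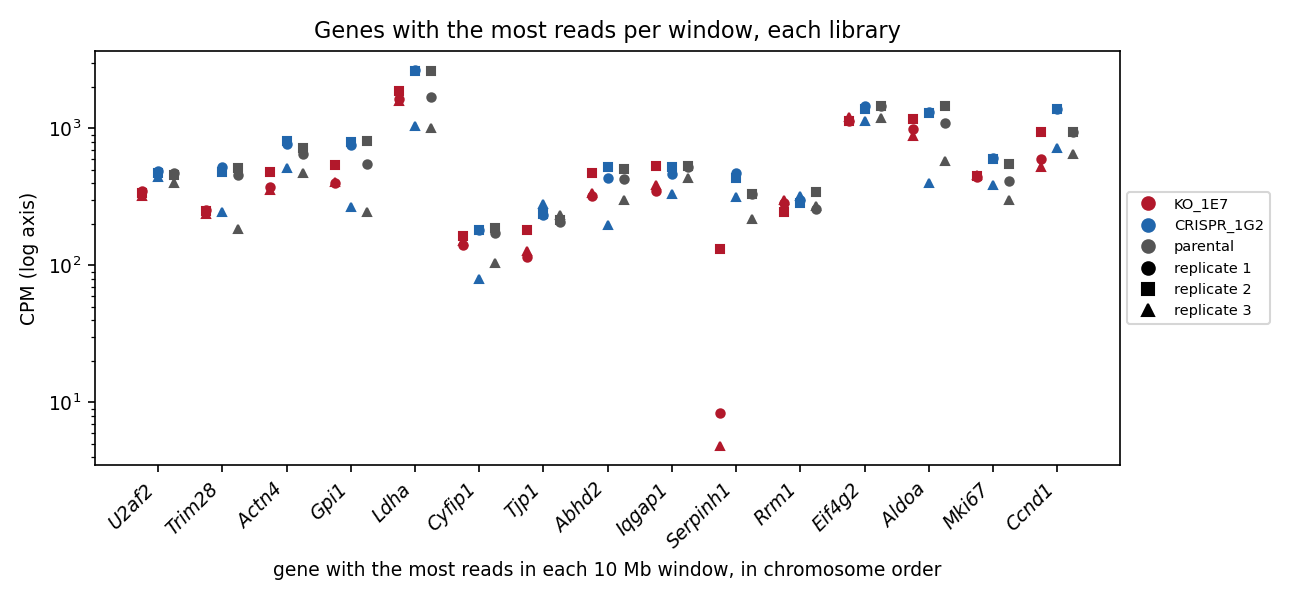
Points are CPM on a log axis in each library for the gene with the most reads in each 10 Mb window, in chromosome order, with KO_1E7 left of CRISPR_1G2 and parental. U2af2, Tjp1 and Serpinh1 show every KO_1E7 library below the other 6, whereas genes such as Rrm1 and Mki67 overlap.

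By function, 142 genes of the chromosome were set out in 8 role lists, of which 141 were tested. In KO_1E7 against parental the median log2 fold change was below that of all genes in all 8 lists. In transcription and chromatin the median was -0.53, 25 of 27 tested genes were negative, 4 were called lower and 0 higher. In RNA processing, translation and the proteasome the median was -0.44, 19 of 19 were negative, 4 were called lower and 0 higher. In apoptosis and stress the median was -0.59, 7 of 8 were negative, 2 were called lower and 0 higher. In cell cycle, replication and repair the median was -0.22, with 3 of 20 called lower and 0 higher. Cytoskeleton, adhesion and surface genes had a median of -0.23 with 1 of 17 called lower and 0 higher, and metabolism genes one of -0.19 with 1 of 19 lower and 1 higher. Signalling genes had a median of -0.32 with 1 of 18 called lower and 2 higher. Membrane traffic and lysosome genes lay closest to the genome, at -0.03, with 1 of 13 called lower and 1 higher. The shares of all tested genes called, 2.87% lower and 2.54% higher, apply to each list. In CRISPR_1G2 against parental, 1 list gene passed, Axl, and list medians lay between 0.03 and 0.33.

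Bax, encoding a pro-apoptotic pore-forming protein, had 91.5, 77.8 and 85.0 CPM in KO_1E7 1, 2 and 3, 139, 134 and 162 CPM in CRISPR_1G2 1, 2 and 3, and 114, 131 and 126 CPM in parental 1, 2 and 3. It was lower in every KO_1E7 library than in any other. Napa, encoding the membrane fusion factor alpha-SNAP, had 93.9, 93.9 and 86.9 CPM in KO_1E7 1, 2 and 3, 177, 179 and 299 CPM in CRISPR_1G2 1, 2 and 3, and 169.8, 152 and 246 CPM in parental 1, 2 and 3. The KO_1E7 libraries were tight and lay below all others, with a log2 fold change of -1.05 ± 0.25 against parental. Akt2, encoding a kinase of insulin signalling, had 103, 105 and 92.3 CPM in KO_1E7 1, 2 and 3, 155, 144 and 151 CPM in CRISPR_1G2 1, 2 and 3, and 128, 152 and 117 CPM in parental 1, 2 and 3. It too did not overlap, by -0.41 ± 0.13. Uqcrc2, encoding a core protein of respiratory complex III, had 88.9, 107 and 97.9 CPM in KO_1E7 1, 2 and 3, 142, 135 and 142 CPM in CRISPR_1G2 1, 2 and 3, and 154, 149 and 119 CPM in parental 1, 2 and 3, again without overlap.

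Other list genes separated the groups less cleanly. Eif3c, encoding a subunit of the translation initiation factor eIF3, had 329, 375 and 348 CPM in KO_1E7 1, 2 and 3, 476, 445 and 312 CPM in CRISPR_1G2 1, 2 and 3, and 628, 448 and 347 CPM in parental 1, 2 and 3. CRISPR_1G2 3 lay below every KO_1E7 library, and parental 3 lay among them. Ppp1r15a, encoding the stress-induced phosphatase subunit GADD34, had 14.6, 25.7 and 16.7 CPM in KO_1E7 1, 2 and 3, 26.4, 28.0 and 290.0 CPM in CRISPR_1G2 1, 2 and 3, and 121, 23.7 and 348 CPM in parental 1, 2 and 3. CRISPR_1G2 3 and parental 3 were far above the rest. Ftl1, encoding the ferritin light chain, had 1218, 714 and 947 CPM in KO_1E7 1, 2 and 3, 1082, 1084 and 1123 CPM in CRISPR_1G2 1, 2 and 3, and 1308, 1370.5 and 1079 CPM in parental 1, 2 and 3, and KO_1E7 1 lay within the range of the others. Pvr, encoding the adhesion receptor CD155, had 107, 237 and 99.5 CPM in KO_1E7 1, 2 and 3, 389, 379 and 652 CPM in CRISPR_1G2 1, 2 and 3, and 302, 222 and 531 CPM in parental 1, 2 and 3, with KO_1E7 2 above parental 2.

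Of the transcription and chromatin genes, Tead1, encoding a DNA-binding partner of the coactivator YAP, had 129, 205 and 148 CPM in KO_1E7 1, 2 and 3, 184, 188 and 349 CPM in CRISPR_1G2 1, 2 and 3, and 217, 235 and 396 CPM in parental 1, 2 and 3. It lay below every parental library in KO_1E7 but overlapped CRISPR_1G2. Cic, encoding a repressor controlled by receptor tyrosine kinase signalling, had 181, 185 and 169.8 CPM in KO_1E7 1, 2 and 3, 286, 269 and 252 CPM in CRISPR_1G2 1, 2 and 3, and 215, 270.3 and 177 CPM in parental 1, 2 and 3. It was lower in every KO_1E7 library than in any CRISPR_1G2 library, and parental 3 lay among the KO_1E7 values. Mapk3, encoding the kinase ERK1, had 143, 144 and 140.0 CPM in KO_1E7 1, 2 and 3, 146, 136 and 59.5 CPM in CRISPR_1G2 1, 2 and 3, and 124, 153 and 80.4 CPM in parental 1, 2 and 3, and Copb1, encoding a coatomer subunit, differed by -0.03 ± 0.12 in KO_1E7 against parental. Neither gene set KO_1E7 apart.

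A few members ran the other way in KO_1E7. Ucp2, encoding a mitochondrial inner membrane carrier (ENSMUSG00000033685, plus strand, 100493337 to 100502020), had 38.6, 19.4 and 34.9 CPM in KO_1E7 1, 2 and 3, 2.11, 1.51 and 1.13 CPM in CRISPR_1G2 1, 2 and 3, and 5.87, 4.11 and 1.58 CPM in parental 1, 2 and 3. Arrb1, encoding beta-arrestin 1, which binds activated receptors and ends their signalling, had 16.6, 18.4 and 17.6 CPM in KO_1E7 1, 2 and 3, 3.27, 4.29 and 6.05 CPM in CRISPR_1G2 1, 2 and 3, and 2.10, 3.01 and 2.31 CPM in parental 1, 2 and 3. Both lay above every other library, with log2 fold changes against parental of 3.00 ± 0.49 for Ucp2 and 2.82 ± 0.27 for Arrb1. Ctsd, encoding the lysosomal protease cathepsin D, had 509.6, 414 and 478 CPM in KO_1E7 1, 2 and 3, 306, 368 and 364 CPM in CRISPR_1G2 1, 2 and 3, and 289.9, 270.1 and 262 CPM in parental 1, 2 and 3. It was higher in every KO_1E7 library, by 0.77 ± 0.13 against parental. The other members with the most positive values in that contrast had few reads. The counts of 3100003L05Rik were 77, 144 and 56 in KO_1E7 1, 2 and 3, 0, 1 and 0 in CRISPR_1G2 1, 2 and 3, and 5, 11 and 0 in parental 1, 2 and 3. Gm39043 had 19, 15 and 12 counts in KO_1E7 1, 2 and 3, 2, 1 and 1 in CRISPR_1G2 1, 2 and 3, and 2, 1 and 1 in parental 1, 2 and 3. Gm1966 had 13, 15 and 9 counts in KO_1E7 1, 2 and 3, 13, 14 and 2 in CRISPR_1G2 1, 2 and 3, and 1, 0 and 0 in parental 1, 2 and 3, with CRISPR_1G2 3 near the parental counts.

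The most negative members in KO_1E7 against parental also had few reads. Fuom, encoding fucose mutarotase, had 0.452, 1.53 and 0.627 CPM in KO_1E7 1, 2 and 3, 5.52, 5.04 and 7.21 CPM in CRISPR_1G2 1, 2 and 3, and 6.15, 6.16 and 6.42 CPM in parental 1, 2 and 3. Its groups were well separated, and its log2 fold change was -2.81 ± 0.43. Acan, encoding the proteoglycan aggrecan, had 1, 2 and 3 counts in KO_1E7 1, 2 and 3, 3, 15 and 13 in CRISPR_1G2 1, 2 and 3, and 95, 118 and 26 in parental 1, 2 and 3, so that it was highest in parental. Gm9801 had 0, 6 and 1 counts in KO_1E7 1, 2 and 3, 6, 20 and 45 in CRISPR_1G2 1, 2 and 3, and 20, 24 and 56 in parental 1, 2 and 3. Tspan32os had 2, 2 and 3 counts in KO_1E7 1, 2 and 3, 3, 4 and 5 in CRISPR_1G2 1, 2 and 3, and 27, 15 and 13 in parental 1, 2 and 3. The pair differed in CRISPR_1G2, which overlapped parental for Gm9801 and stayed below it for Tspan32os. The counts of 2610206C17Rik were 1, 0 and 0 in KO_1E7 1, 2 and 3, 5, 6 and 10 in CRISPR_1G2 1, 2 and 3, and 3, 17 and 13 in parental 1, 2 and 3.

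KO_1E7 minus parental was -0.41 in members of low mean CPM, -0.42 in those of middle and -0.40 in those of high mean CPM, in 3 sets of near-equal size, and KO_1E7 minus CRISPR_1G2 was -0.37, -0.47 and -0.48 in the same sets. Against parental it was -0.43 in protein-coding members and -0.32 in other gene types, and -0.38 for plus-strand and -0.45 for minus-strand genes. Against CRISPR_1G2 protein-coding members and other gene types lay further apart, at -0.51 and -0.23, with -0.42 for plus-strand and -0.50 for minus-strand genes. Transcripts of members were richer in G and C than those of other tested genes, with a median of 52.1% against 49.1%. Elsewhere in the genome, genes with high GC content lay lower in KO_1E7 2 and 3 too, but not in KO_1E7 1. Medians of other tested genes in the bins of lowest and highest GC content were -0.02 and 0.01 in KO_1E7 1. They were 0.10 and -0.13 in KO_1E7 2, and 0.16 and -0.16 in KO_1E7 3. When all tested genes were ranked by GC content and split into 10 equal bins, members nonetheless lay below other genes in every bin, at -0.47 to -0.31 for members and -0.15 to 0.13 for the rest. After centring within these bins, the member median relative to all genes was -0.38, against -0.41 without centring.

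**Figure D4:**
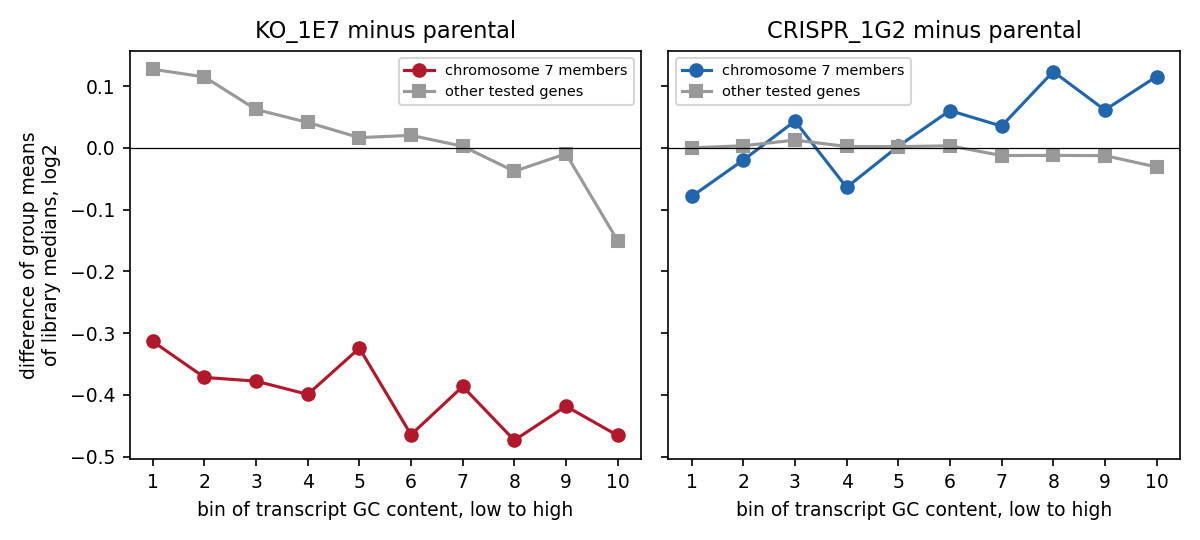
Lines give the difference between group means of library medians, in log2 units, for chromosome 7 members and for other tested genes in 10 bins of transcript GC content, for KO_1E7 minus parental and CRISPR_1G2 minus parental. In KO_1E7 the members lie between -0.47 and -0.31 in every bin, below the other genes, which run between 0.13 and -0.15.

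Chromosome medians separated KO_1E7 from parental on many chromosomes. On 14 of 20 chromosomes every KO_1E7 library lay outside the range of the parental libraries, above it on 9 and below it on 5. KO_1E7 minus parental was -0.43 on chromosome 7 with all its tested genes, -0.36 on 16, -0.18 on 2 and -0.16 on 11, and on the other side 0.33 on 8, 0.30 on 14, 0.18 on 9 and 0.16 on 13, all without overlap. The median of all tested genes of chromosome 16 was -0.31, -0.19 and -0.35 in KO_1E7 1, 2 and 3, 0.17, 0.16 and 0.31 in CRISPR_1G2 1, 2 and 3, and 0.06, 0.11 and 0.04 in parental 1, 2 and 3. That of chromosome 8 was 0.29, 0.17 and 0.23 in KO_1E7 1, 2 and 3, -0.15, -0.14 and -0.12 in CRISPR_1G2 1, 2 and 3, and -0.10, -0.11 and -0.09 in parental 1, 2 and 3. On chromosomes 7, 8 and 16 KO_1E7 2 was the KO_1E7 library closest to 0. A low level in KO_1E7 was thus not seen on chromosome 7 alone, and no test between chromosomes was made.

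**Figure D5:**
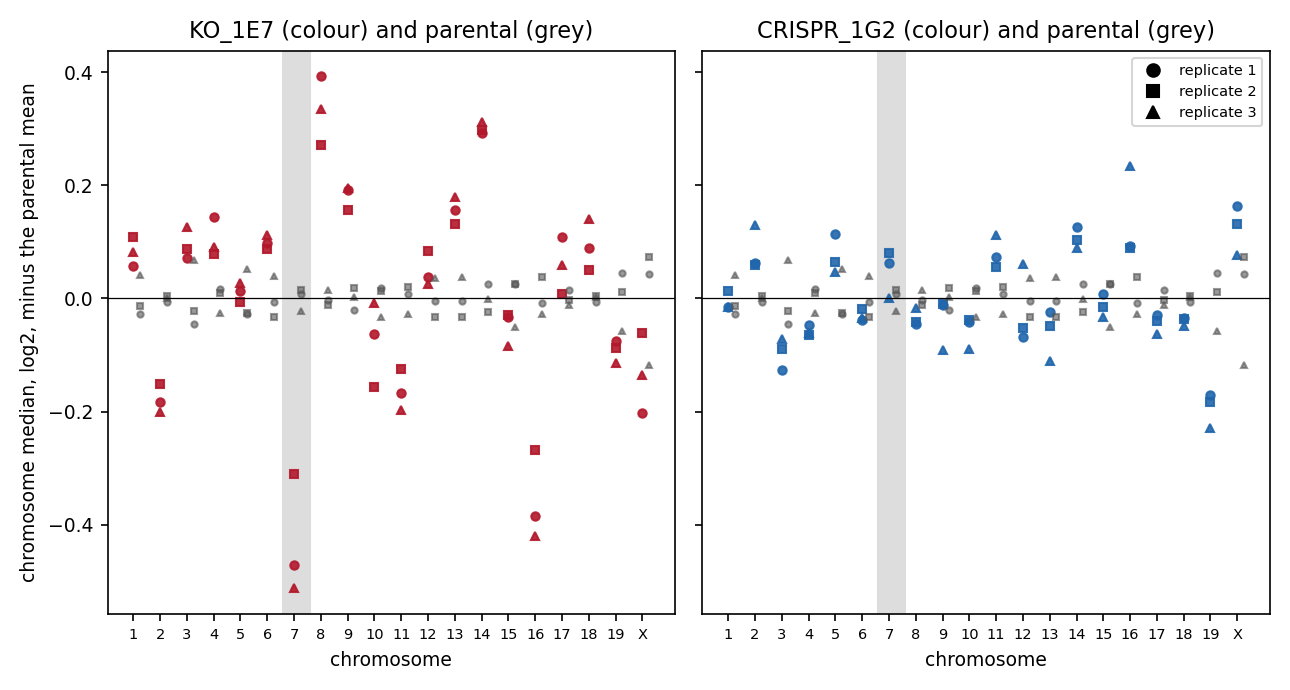
Points are the median log2 deviation of all tested genes of each chromosome in each library minus the parental mean, for KO_1E7 (left) and CRISPR_1G2 (right) in colour with the parental libraries in grey, and the shaded column is chromosome 7. The KO_1E7 points lie furthest below 0 on chromosomes 7 and 16.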

How the data were processed

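Poly(A) RNA was sequenced from 3 libraries each of KO_1E7, CRISPR_1G2 and parental Panc02 cells, and groups and replicate numbers were taken from the sample titles. Per the labels' protocols, RNA was selected with oligo-dT and made into libraries with NEBNext Ultra II. If strand was not marked, or not used in counting, overlapping and antisense genes such as Tspan32os cannot be separated from their partners. Ftl1, Ldha and Aldoa have near-identical copies that may share reads. The authors deposited raw read counts for each gene, with no normalization. bcl2fastq 2.17, STAR 2.5.2b, the GRCm38 build, featureCounts of Subread 1.5.2 and DESeq2 are named, per the submitters' processing notes, and the annotation and strand setting are not given in the sources used here. Spike-in controls (0.344% to 0.820% of counts) were left out.

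From these counts, R 4.3.3 with edgeR 4.0.16 gave quasi-likelihood F-tests (robust) on TMM-scaled counts of 15766 genes passing filterByExpr, with all 9 libraries in 1 fit. P-values were adjusted by Benjamini-Hochberg over all tested genes and called at 0.05. CPM used TMM-scaled library sizes, and log2 CPM a prior count of 2. The chi-square per gene between replicates, 5.72 to 449, was far above sampling noise, so all 9 libraries were kept. The labels do not say that replicates were separate cultures, so a p-value reflects the spread of these samples alone, and that spread may be technical. Deviations from the group means correlated between same-numbered CRISPR_1G2 and parental libraries at 0.24, 0.47 and 0.65, all over 0.1, so the numbers were taken to pair those groups, from the data, since the labels state no pairing. The correlations were -0.003, 0.06 and 0.15 between KO_1E7 and parental and -0.05, 0.13 and 0.07 between KO_1E7 and CRISPR_1G2, and those groups were not taken as paired. Column-name dates are shared by KO_1E7 1 and parental 1 and by CRISPR_1G2 1 and parental 2, so they do not follow the numbers. GC content came from the longest GENCODE M21 transcript of each gene, and promoters from the RefSeq table of GRCm38.p6. Alternatives were DESeq2 1.42.0, other scalings, filters and windows, a replicate block and left-out libraries. The fit was tested on simulated data. Members, role lists and tests were chosen with earlier results of these data known. Named genes were the member with the highest mean CPM in each window, members called in CRISPR_1G2 against parental, the 5 most positive and 5 most negative called members of KO_1E7 against parental, and for each role list up to 4 members of highest CPM. A gene that this rule names is not reported here.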

Additional observations from a re-analysis of the deposited data

How the results depend on the processing

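The chromosome 7 median, its value by library and the share of windows with KO_1E7 below CRISPR_1G2 or parental moved by less than the spread between replicates, or by less than 1.5 times for shares, under every other scaling, filter, prior count, window size and GC centring run. Counts of called members moved more. Leaving out 1 library at a time, the median relative to all genes ran from -0.48 to -0.37 in KO_1E7 against parental, -0.55 to -0.43 in KO_1E7 against CRISPR_1G2 and 0.01 to 0.07 in CRISPR_1G2 against parental. Members called lower then ran from 2 to 218, 42 to 254 and 1 to 2 in those contrasts, and members called higher from 1 to 25, 12 to 26 and 0 to 3. Over all tested genes, the share called lower ran from 0.0483% to 6.38%, 1.09% to 7.54% and 0.0902% to 0.202%. The share called higher ran from 0.0966% to 5.82%, 1.65% to 6.9% and 0% to 0.255%. In KO_1E7 against parental, 15 members were called higher, against 27 with DESeq2, 25 without replicate 3 of each group and 34 without the 3 libraries that stood apart. The 106 called lower became 256 with DESeq2, 58 without a filter, 223 without replicate 3 of each group and 481 without those 3 libraries. In KO_1E7 against CRISPR_1G2, DESeq2 called 354 lower, and without the 3 libraries 533 were lower and 43 higher. In CRISPR_1G2 against parental, 8 were lower and 16 higher with DESeq2, 1 higher without replicate 3 of each group, and 7 lower and 33 higher without the 3 libraries. The share of windows with every CRISPR_1G2 library above every parental one was 13.3%, and 21.4% with 5 Mb windows, 6.67% with members of at least 100 counts and 33.3% with GC centring. The share below was 0%, 10.7% with 5 Mb windows and 13.3% with GC centring. Calls over all tested genes, both directions together, moved as well. They numbered 854 in KO_1E7 against parental, 2358 with DESeq2, 546 without a filter, 1737 without replicate 3 of each group and 4423 without the 3 libraries. They numbered 2010, 3374 with DESeq2 and 5557 without the 3 libraries in KO_1E7 against CRISPR_1G2, and 40, 235, and 326 in CRISPR_1G2 against parental under the same settings. The cause of these moves was not tested. Depth sets the precision of members with few reads, whose counts are given.

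With the replicate number as a block, 162 members were called lower in KO_1E7 against parental, and 1298 genes were called in all. The numbers were not taken to pair those groups. In CRISPR_1G2 against parental, where the numbers were taken to pair from the data alone, the block called 1 member higher. Both calls of lower members held there. Of 9 libraries, 6 correlated best with their own number.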
